A study of Mus musculus with 8 samples.

Results

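The 39 genes described here are those by which endothelium, the cell layer that lines blood vessels, and endocardium, the inner lining of the heart, are usually recognised. They include the receptors for vascular endothelial growth factors (VEGF) and angiopoietins with some of their ligands, the transcription factors of the lineage, and proteins of its junctions and surface. They were chosen by their symbols, with no measured value in the rule, though earlier results of these data were known. All 39 were found among the 48526 genes of the count table. RNA was sequenced from the left and the right heart field of 4 wild-type male C57bl6/J mouse embryos at stage E8.5f, named L29-3, L43-5, L46-8 and L49-3, which gave 4 left and 4 right libraries. Each library came from a single embryo, no embryo carried a mutation or received an agent, and the comparison of the sides asks which genes are asymmetric in this tissue. The dissected piece reached from below the headfolds to the second somite and was split at the midline, after the heart itself and the back of the embryo had been taken away. The libraries hold the endothelium among several other tissues, and how much endocardium came with the piece was not tested.

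Endothelial cells of the early embryo arise from mesoderm in which the ETS factor ETV2 acts at the top of a cascade of transcription factors. VEGF secreted by neighbouring tissues acts on the receptor KDR to drive their growth and assembly into vessels, whereas the angiopoietin receptor TEK and its relative TIE1 are known for roles in the later growth of vessels and endocardium. Cadherin 5 and PECAM1 hold the cells together at their junctions, and apelin, adrenomedullin and natriuretic peptides act through receptors on endothelium or on nearby mesoderm. Several of the 39 genes are also made outside endothelium: *Vegfa*, *Vegfc*, *Angpt1* and *Apln* encode secreted factors, and *Aplnr*, *Npr3*, *Gata2*, *Klf2* and *Egfl7* are known from other cell types as well.

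The libraries held between 1147446 and 3520753 counts after the authors had excluded duplicate reads, and both libraries of L49-3 were the shallowest. A count of 0 allowed a level of up to 2.62 CPM (the count of a gene relative to the total of its library) in the smallest library, a limit set by 3 counts, and of up to 0.852 CPM in the largest. These limits cover counting error only. Of the 39 genes, 32 reached a DESeq2-normalized count of 20 in 4 or more of the 8 libraries and were tested together with the other genes that passed this filter, 9744 in all. The other 7, *Emcn*, *Robo4*, *Gja4*, *Gja5*, *Icam2*, *Angpt2* and *Klf2*, are given by their values. The defining markers *Kdr*, *Cdh5*, *Pecam1*, *Tek*, *Tie1*, *Emcn* and *Esam* were detected in all 8 libraries, the lowest value being 12.4 normalized counts for *Esam* in the left library of L49-3. In bulk tissue, fewer endothelial cells and less RNA of a gene per cell cannot be told apart.

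The set of RefSeq start sites used here, on GRCm38.p6, listed 24 of the 39 genes. Absence from this set does not mean that RefSeq lacks the gene. The 250 bases before each listed start site were read for short motifs on both strands. The start site used for *Gja5* lay 127709 bases from the start of the gene in GENCODE, and that of *Egfl7* 1069 bases. The letters CAGGAA, a core bound by ETS factors such as ETV2, ERG and FLI1, were present before 13 of the 24 start sites (54.2%), against 25.7% of all 32851 listed start sites. The variant CCGGAA was present before 1 of the 24 (4.17%), against 12% of all, and the letters AGATAA, bound by GATA factors such as GATA2, before 2 (8.33%), against 9.99% of all. The 2 ETS motifs cannot overlap at the same bases, and either was found before 14 of the 24 start sites (58.3%) and before 35.1% of all. A match describes the letters of the window and is not a binding site. The windows of 4 genes that do not overlap an exon are shown on the strand of the gene, from the base 250 before the start site to the base before it, with the CAGGAA motif or its reverse complement TTCCTG in capitals. *Stab1* was chosen because it was the gene past the threshold between the sides, *Tek* and *Eng* because they were among the 4 genes with the smallest p between embryos, and *Etv2* because it encodes an ETS factor. The window of *Stab1* lies at chr14:31168642-31168891 on the minus strand and holds 2 matches, that of *Tek* at chr4:94739039-94739288 on the plus strand with 2 matches, that of *Eng* at chr2:32646345-32646594 on the plus strand with 0 matches, and that of *Etv2* at chr7:30635853-30636102 on the minus strand with 1 match.
Stab1: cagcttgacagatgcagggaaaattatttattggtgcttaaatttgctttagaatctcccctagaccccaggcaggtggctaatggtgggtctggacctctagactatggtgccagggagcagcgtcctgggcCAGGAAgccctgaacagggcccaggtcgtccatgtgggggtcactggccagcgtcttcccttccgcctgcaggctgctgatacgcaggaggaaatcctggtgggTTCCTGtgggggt
Tek: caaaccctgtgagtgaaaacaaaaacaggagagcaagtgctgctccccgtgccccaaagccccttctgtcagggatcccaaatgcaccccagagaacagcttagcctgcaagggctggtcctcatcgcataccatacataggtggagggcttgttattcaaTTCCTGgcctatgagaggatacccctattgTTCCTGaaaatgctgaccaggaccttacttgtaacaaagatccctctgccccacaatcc
Eng: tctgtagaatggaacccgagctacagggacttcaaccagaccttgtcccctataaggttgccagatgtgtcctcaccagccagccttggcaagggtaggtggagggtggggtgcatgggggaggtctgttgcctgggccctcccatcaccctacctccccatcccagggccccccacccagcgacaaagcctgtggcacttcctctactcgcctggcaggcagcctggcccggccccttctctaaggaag
Etv2: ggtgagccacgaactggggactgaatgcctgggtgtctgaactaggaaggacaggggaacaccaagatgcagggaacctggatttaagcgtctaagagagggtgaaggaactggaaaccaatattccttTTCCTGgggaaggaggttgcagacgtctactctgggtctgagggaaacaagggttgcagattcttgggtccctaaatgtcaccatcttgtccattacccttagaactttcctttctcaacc

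Levels of different genes were compared per length, as TMM-normalized CPM per kilobase of exon. The apelin receptor *Aplnr* had the highest mean level per kilobase, 42.1 ± 3.02 (SD, n = 8 libraries), followed by *Plvap*, the protein of endothelial diaphragms, with 29.95 ± 7.64, the growth factor *Vegfa* with 22.7 ± 2.86, the junctional cadherin *Cdh5* with 22.02 ± 4.38 and the VEGF receptor *Kdr* with 17.0 ± 2.22. *Klf2*, a transcription factor known for its response to blood flow, with 1.38 ± 0.64, the arterial connexin *Gja5* with 1.23 ± 0.59 and the guidance receptor *Robo4* with 0.23 ± 0.19 had the lowest levels. Only 10 of the 39 genes exceeded the median level of all tested genes, 10.8. Among the 38 pairs of neighbours in this order, 1 pair, *Gja5* above *Robo4*, kept its order in all 8 libraries, so that most neighbours did not differ beyond their spread. For the genes between these extremes, the mean level per kilobase lay from 1.91 (*Emcn*, a sialomucin of the endothelial surface) to 13.4 (*Egfl7*, a secreted endothelial protein).

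**Figure D1:**
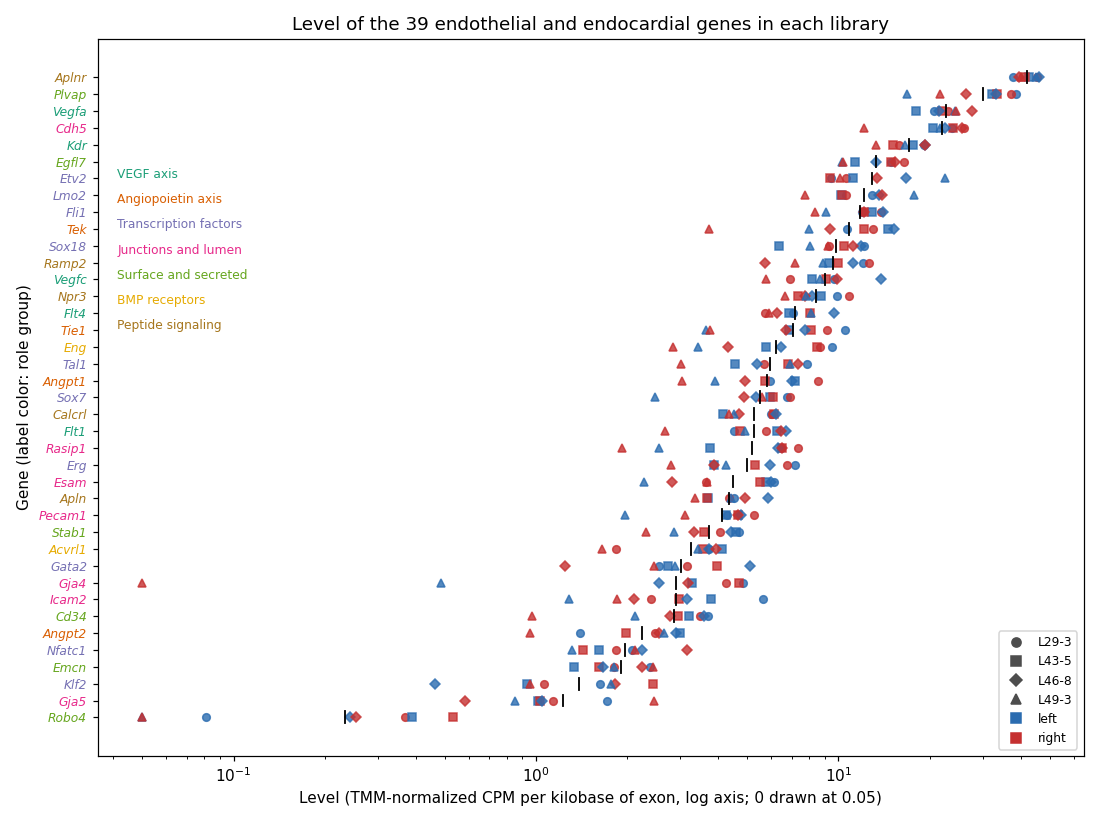
Level of each of the 39 genes in each of the 8 libraries, in TMM-normalized CPM per kilobase of exon on a log axis, with genes ordered by their mean (black tick) and values of 0 drawn at 0.05. Marker shape gives the embryo and color the side. *Aplnr* lies at the top with 37.7 to 45.9, and the triangles of L49-3 lie at the left of many rows.

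Differences between left and right libraries were estimated with wide margins in the 39 genes, 7 of which were not tested. The median standard error of the log2 fold change was 0.192 over the 32 tested genes, against 0.14 over all tested genes. An absence of difference cannot be read from this test. *Stab1*, a scavenger receptor of sinusoidal and other endothelium, was the only one of the 32 tested genes past the threshold of the study, a fold of 1.2 or more in either direction combined with an unadjusted p no larger than 0.05, and it was higher on the left by 1.25-fold. This is 1 of 32 genes, where 3.05% of all tested genes passed the threshold, 1.63% with a higher and 1.42% with a lower level on the left. *Kdr* was 1.15-fold higher on the left and *Vegfa* lower, at 0.862-fold, with unadjusted p-values under 0.05 but below the required fold. These 3 genes with an unadjusted p of at most 0.05 stand against 4.36% of all tested genes. After adjustment for all 9744 genes with edgeR's quasi-likelihood test, 0 of the 32 genes had an adjusted p under 0.05, the smallest being 0.987, against 0.0103% of all tested genes. At an unadjusted p under 0.05, edgeR gave 3 of the 32 genes and 425 of all 9744, limma-voom 3 and 457, and DESeq2 0 and 65. With an embryo left out, 1 or 2 of the 32 genes passed the threshold of the study, and *Stab1* was among them only without L49-3.

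The log2 fold change of left over right was above 0 in 23 and below 0 in 9 of the 32 tested genes, where 48.6% of all tested genes were above 0. The median over the 32 genes was 0.11, against -0.00 over all tested genes, with values from -0.28 in *Rasip1* to 0.43 in *Acvrl1* and a median standard error of 0.192. The median differed between embryos, and on the scale of log2 ratios it was 0.02 for L29-3, -0.04 for L43-5, 0.22 for L46-8 and 0.30 for L49-3. The left library was the higher in 16, 14, 24 and 23 of the 32 genes in these embryos. The positive median thus rested on L46-8 and L49-3, and the median log2 fold change was 0.01 without L46-8 and 0.06 without L49-3. All 4 embryos had the same direction in 6 of the 32 genes, where 12.4% of all tested genes did. *Kdr*, *Cd34*, *Apln* and *Stab1* were higher on the left in each embryo, and *Egfl7* and *Vegfa* lower. The left and right libraries overlapped in every one of the 32 genes, whereas they were separate in 2.51% of all tested genes.

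**Figure D2:**
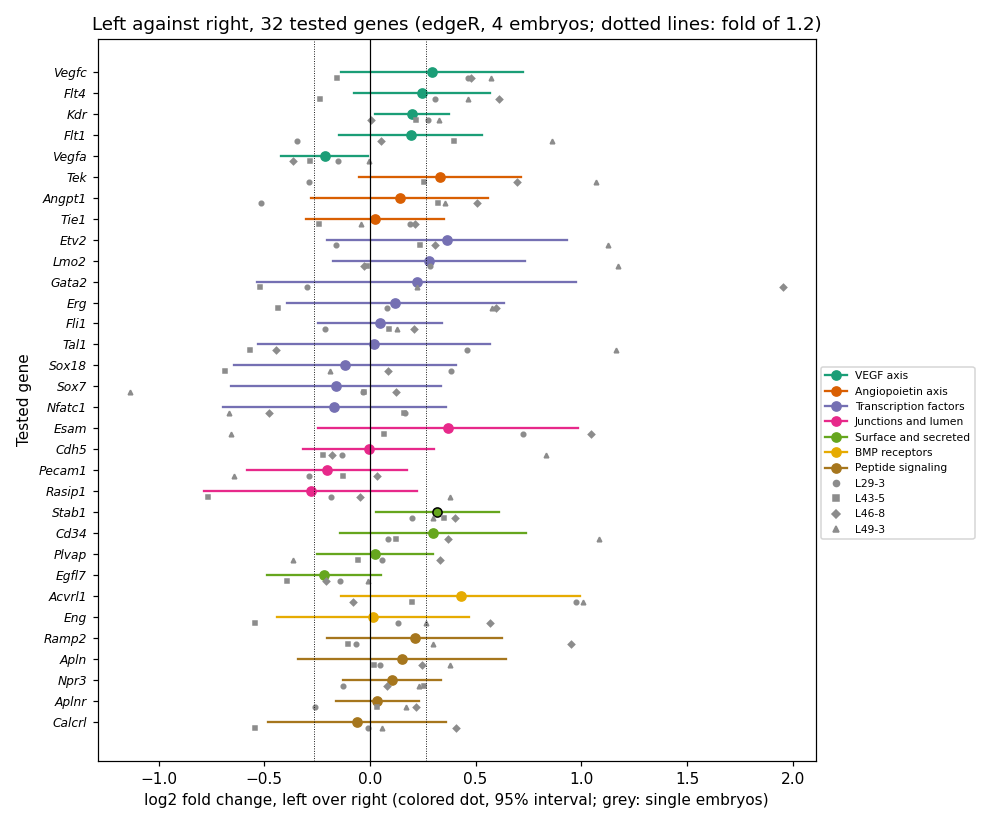
Log2 fold change of left over right for the 32 tested genes from edgeR with the embryo as a block (colored dot, with the 95% interval as a line) and the log2 ratio in each embryo (grey, shape by embryo), grouped by role. Dotted lines mark a fold of 1.2 in either direction, and the outlined dot is *Stab1* at 0.32, whose 4 embryos lie from 0.20 to 0.40.

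Many of the genes were low in both libraries of 1 embryo. Embryo L49-3, singled out after the values were seen, had the lowest mean in 24 of the 32 tested genes, where it was the lowest embryo in 33.9% of all tested genes. The other embryos were lowest in 3 (L29-3), 5 (L43-5) and 0 (L46-8) of the 32 genes, against 24.2%, 20.9% and 21% of all tested genes. The median log2 ratio of L49-3 to the mean of the other embryos was -0.46 over the 32 genes and -0.01 over all tested genes. Both L49-3 libraries lay below all 6 others in 11 of the 32 genes, against 9.44% of all tested genes, and above all 6 others in 0, against 7.83%. The 11 genes were *Tek*, *Tie1*, *Pecam1*, *Fli1*, *Plvap*, *Egfl7*, *Cd34*, *Eng*, *Rasip1*, *Angpt1* and *Stab1*, and the libraries of L49-3 also lay lowest for *Gja4* and *Icam2*, which were not tested.

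Both libraries of another embryo lay below the 6 others in 0 of the 32 genes for L29-3, L43-5 and L46-8, where 4.13%, 3.2% and 2.91% of all tested genes did. They lay above the 6 others in 7 genes for L29-3 (*Tie1*, *Sox7*, *Erg*, *Plvap*, *Eng*, *Npr3* and *Ramp2*), in 0 for L43-5 and in 5 for L46-8 (*Kdr*, *Flt1*, *Nfatc1*, *Apln* and *Vegfc*), against 4.41%, 3.3% and 2.92% of all tested genes. In the F-test of the embryo terms, which asks whether embryos differ by more than the 2 libraries of an embryo do, edgeR gave 0 of the 32 genes an adjusted p under 0.05, the smallest being 0.117 in *Tie1*, where 0.174% of all tested genes passed. An unadjusted p of at most 0.05 was found in 11 of the 32 genes, against 9.99% of all tested genes, by DESeq2 in 5, against 3.93% of all, and by limma-voom in 10, against 9.82% of all. All of these 11 genes were lowest in L49-3, as were 407 of the 973 genes of the whole table with such a p. Without L49-3, an unadjusted p under 0.05 was left in 1 of the 32 genes, against 4.37% of all tested genes, and the smallest adjusted p was 0.98 with edgeR. Without L46-8, *Eng*, *Tie1* and *Plvap* had an adjusted p under 0.05, and the number of all tested genes that passed rose as well.

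Pairs of embryos were compared in the same fit, an analysis added after the values were seen. Each pair sets a single embryo against another, with the left and right library of an embryo as its only replicates. The p-values were adjusted over genes within a pair and not over the pairs. In the F-test over all embryos, neither *Tie1* (adjusted p = 0.117 with edgeR) nor *Plvap* (0.165) had passed. *Tie1* was higher in L29-3 than in L49-3 by 1.41 on the log2 scale (adjusted p = 0.0304 with edgeR) and *Plvap* by 0.98 (adjusted p = 0.0478). These 2 genes of 32 stand against 0.698% of all tested genes in this pair. Between L43-5 and L49-3, 0 of the 32 genes passed, against 0.903% of all tested genes, and the smallest adjusted p was 0.0687 in *Tek*. Between L46-8 and L49-3, 0 passed, against 0.0308%, and in the 3 pairs without L49-3, 0 of the 32 genes and 0% of all tested genes had an adjusted p under 0.05.

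**Figure D3:**
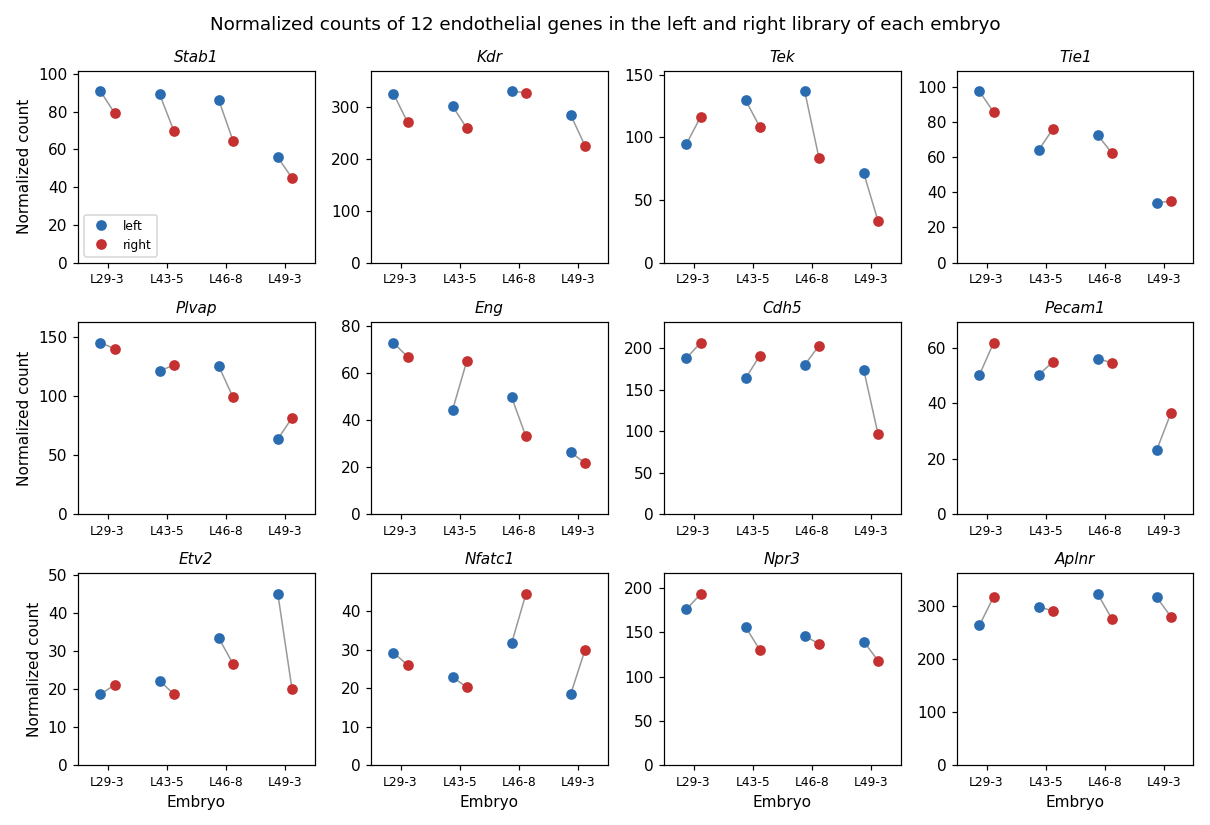
DESeq2-normalized counts of 12 of the genes in the left (blue) and right (red) library of each embryo, a line joining the libraries of an embryo and each axis starting at 0. *Stab1* was higher on the left in every embryo, *Tek*, *Tie1*, *Plvap*, *Eng* and *Pecam1* were lowest in both libraries of L49-3, and *Aplnr* stayed between 263 and 322.

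Among the genes of VEGF signaling, the main receptor *Kdr* was slightly higher and the ligand *Vegfa* slightly lower on the left, both short of the required fold. In the left and the right library *Kdr* had 327 and 271 normalized counts for L29-3, 303 and 259.9 for L43-5, 331 and 329 for L46-8, and 285 and 226 for L49-3. The left library was the higher in each embryo, by the smallest margin in L46-8, but the sides overlapped. The log2 fold change was 0.20 (SE 0.0808, 95% interval 0.02 to 0.37, unadjusted p = 0.0307 and adjusted p = 0.987 with edgeR). The ligand *Vegfa* had 168 and 187 normalized counts for L29-3, 147 and 179 for L43-5, 174 and 223 for L46-8, and 198 in each library of L49-3. It was lower on the left in the first 3 of these embryos and almost equal in L49-3, where the log2 ratio was -0.01. Its log2 fold change was -0.21 (SE 0.0944, 95% interval -0.42 to -0.01, unadjusted p = 0.0431 and adjusted p = 0.987 with edgeR), and it passed the threshold of the study only without L49-3, with -0.27 (unadjusted p = 0.0269).

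In the decoy and signaling receptor *Flt1*, the VEGFC receptor *Flt4* and its ligand *Vegfc*, the direction between the sides differed between embryos. *Flt1* lay between 68.1 and 172 normalized counts, the lowest value being the right library of L49-3, and *Flt4* between 89.1 and 151. *Vegfc* lay between 26.6 and 64.3. Their log2 fold changes were 0.19 (SE 0.155), 0.25 (SE 0.147) and 0.29 (SE 0.197), with every adjusted p at 0.987. Relative to the other embryos, the 5 genes of this group had a median log2 ratio of -0.25 in L49-3, from -0.60 in *Flt1* to 0.14 in *Vegfa*.

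The receptors of the angiopoietin axis were among the genes that varied most between embryos. *Tek*, the receptor of the angiopoietins, had 94.8 and 116 normalized counts on the left and right for L29-3, 129.7 and 108 for L43-5, 137 and 83.8 for L46-8, and 71.2 and 33.2 for L49-3. Both libraries of L49-3 lay below the 6 others, the right library at less than any other value, and the sides overlapped. The log2 fold change between the sides was 0.33 (SE 0.176, adjusted p = 0.987 with edgeR), with the left library the lower in L29-3, and without L29-3 it was 0.56 and past the threshold (unadjusted p = 0.00643 with edgeR). Between embryos the unadjusted p was 0.00638 and the adjusted p 0.235. The level in L49-3 was 0.47 times that of the other embryos.

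*Tie1*, an orphan receptor related to TEK, had 97.3 and 85.4 normalized counts for L29-3, 63.9 and 75.8 for L43-5, 72.4 and 62.2 for L46-8, and 34.1 and 34.9 for L49-3. L29-3 was highest and L49-3 lowest in both libraries, and the sides of an embryo differed far less than the embryos. Between the sides the log2 fold change was 0.02 (SE 0.15), and the p between embryos was the smallest of the list (unadjusted p = 0.000881, adjusted p = 0.117 with edgeR). Exons of *Tie1* share stretches of at least 90% identity over at least 100 bases with 183 other genes that had counts. How reads of such stretches were counted is not stated, and their part in its value was not tested. The ligand *Angpt1* lay between 29.9 and 84.2 normalized counts, with both libraries of L49-3 lowest, and *Angpt2*, which was not tested, between 6.65 and 20.9. The median log2 ratio of L49-3 to the other embryos was -0.996 over the 4 genes of this group.

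The transcription factors did not move together. *Etv2*, the ETS factor that starts the lineage, had 18.6 and 21.0 normalized counts for L29-3, 22.2 and 18.7 for L43-5, 33.4 and 26.6 for L46-8, and 44.9 and 19.9 for L49-3. The left library of L49-3 held the highest and the left library of L29-3 the lowest value. The log2 fold change was 0.37 (SE 0.26, adjusted p = 0.987 with edgeR), and L49-3 had 1.38 times the level of the other embryos. *Nfatc1*, which marks endocardium and its valve-forming cells, had 29.2 and 26.0 normalized counts for L29-3, 22.8 and 20.3 for L43-5, 31.7 and 44.4 for L46-8, and 18.6 and 29.9 for L49-3. It was highest in the right library of L46-8, and the direction differed between embryos. Its log2 fold change was -0.17 (SE 0.242, adjusted p = 0.987).

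Among the other ETS factors, *Fli1* lay between 54.8 and 92.8 normalized counts with both libraries of L49-3 below the rest, and *Erg* between 18.3 and 47.0. The SOX factors of endothelium, *Sox7* and *Sox18*, lay between 15.5 and 43.3 and between 19.6 and 37.3. *Tal1* and *Lmo2*, partners in a complex of blood and endothelial precursors, lay between 24.9 and 64.9 and between 31.6 and 72.8, and *Gata2*, a further member of that network, between 12.7 and 52.1. In *Tal1* and *Lmo2* the left library of L49-3 had 57.3 and 72.8 normalized counts and the right library 24.9 and 31.6. *Gata2* had 52.1 normalized counts in the left and 12.7 in the right library of L46-8, the widest split of any tested gene of the list within an embryo, with a log2 ratio of 1.95. The 9 tested factors had log2 fold changes between the sides from -0.17 to 0.37, with 6 above 0 and none past the threshold. *Klf2* was not tested and had 5.67 and 3.71 normalized counts for L29-3, 3.26 and 8.54 for L43-5, 1.63 and 6.34 for L46-8, and 6.19 and 3.32 for L49-3. These values rest on 2 to 16 reads a library, and the direction differed between embryos. The 10 factors had a median log2 ratio of -0.25 in L49-3, from -0.63 in *Erg* to 0.46 in *Etv2*.

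Among the genes of junctions and lumen, *Cdh5*, the cadherin of endothelial junctions, had 188 and 207 normalized counts for L29-3, 164 and 191 for L43-5, 179.9 and 203 for L46-8, and 173 and 96.4 for L49-3. The right library was the higher in L29-3, L43-5 and L46-8, and the right library of L49-3 stood well below the 7 others. The log2 ratios were -0.13 for L29-3, -0.22 for L43-5 and -0.18 for L46-8 but 0.83 for L49-3, and the fitted log2 fold change was -0.01 (SE 0.142). Without L49-3 it was -0.18, short of the threshold. *Pecam1*, an adhesion molecule of the same junctions, had 50.3 and 61.9 normalized counts for L29-3, 50.2 and 55.0 for L43-5, 56.2 and 54.6 for L46-8, and 23.2 and 36.6 for L49-3. The 6 libraries of the other embryos lay close together and both of L49-3 below them. The log2 fold change was -0.20 (SE 0.173, adjusted p = 0.987 with edgeR), and between embryos the unadjusted p was 0.0272 and the adjusted p 0.402. *Pecam1* shares near-identical stretches with 1003 other genes that had counts.

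*Rasip1*, which is needed for vessels to open a lumen, lay between 11.6 and 44.6 normalized counts and had the lowest level in L49-3 relative to the other embryos of any gene with more than 3 counts there, 0.37-fold. That ratio rests on 10 and 7 reads in the left and right library of L49-3. *Rasip1* shares 654 bases of exon on the same strand with *Izumo1*, which had 9 counts in all. It shares 498 bases on the opposite strand with *A030001D20Rik*, which had 29. *Esam*, a junctional adhesion molecule, lay between 12.4 and 33.2. The other 3 genes of the group were not tested. *Gja5*, which encodes connexin 40, had 18.6 and 12.4 normalized counts for L29-3, 11.1 and 11.2 for L43-5, 11.4 and 6.34 for L46-8, and 9.29 and 26.6 for L49-3. The right library of L49-3 was the highest, from 16 reads. *Gja5* shares 165 bases of exon on the opposite strand with *Gpr89*, and whether strand was used in counting is not stated. *Gja4*, which encodes connexin 37, had between 8 and 28 counts in each library of the other embryos, and 1 and 0 counts in the left and right library of L49-3. *Icam2*, an adhesion molecule, lay between 4.64 and 20.3 normalized counts.

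Among the surface and secreted proteins, *Stab1* had 90.8 and 79.2 normalized counts for L29-3, 89.3 and 69.9 for L43-5, 86.3 and 64.7 for L46-8, and 55.7 and 44.9 for L49-3. The left library was the higher in each embryo, and both libraries of L49-3 lay below the 6 others, so that the sides overlapped across embryos. The left libraries had a mean of 80.5 ± 16.6 and the right libraries of 64.7 ± 14.5 (SD, n = 4). The log2 ratio was 0.20, 0.35, 0.40 and 0.30 in the 4 embryos, and the log2 fold change 0.32 (SE 0.133, 95% interval 0.03 to 0.61, unadjusted p = 0.0342 and adjusted p = 0.987 with edgeR). The gene did not pass with DESeq2 (unadjusted p = 0.198), without the embryo as a block (0.109), or without L29-3 (0.0517), L43-5 (0.117) or L46-8 (0.0936). *Stab1* lies at chr14:31139013-31168641 on GRCm38 on the minus strand. It shares 112 bases of exon on the opposite strand with *Nt5dc2*, which had 6372 counts in all against 664 of *Stab1*, and near-identical stretches with 123 other genes.

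*Plvap* had 145 and 139.9 normalized counts for L29-3, 121 and 126 for L43-5, 125 and 99.0 for L46-8, and 63.5 and 81.4 for L49-3. Both libraries of L29-3 were highest and both of L49-3 lowest. The log2 fold change between the sides was 0.02 (SE 0.125), and between embryos the unadjusted p was 0.00254 and the adjusted p 0.165 with edgeR. *Cd34*, a sialomucin of endothelium and blood progenitors, lay between 13.3 and 51.1 normalized counts and *Egfl7* between 69.7 and 111, both lowest in the libraries of L49-3. *Egfl7* was the lower on the left in each embryo, with a log2 fold change of -0.22 (SE 0.125, adjusted p = 0.987), and *Cd34* the higher, with 0.30 (SE 0.202, adjusted p = 0.987). *Emcn*, not tested, had 13.7 to 24.9 normalized counts, with the right library of L49-3 the highest. *Robo4*, not tested, had 25 counts in all, with 1 and 3 for the left and right library of L29-3, 6 and 10 for L43-5, 3 and 2 for L46-8, and 0 for either library of L49-3. Its level in L49-3 was thus not detectable at this depth.

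Of the receptors of the BMP family in endothelium, the co-receptor *Eng* had 73.0 and 66.9 normalized counts for L29-3, 44.3 and 65.1 for L43-5, 49.6 and 33.0 for L46-8, and 26.3 and 21.6 for L49-3. L29-3 was highest and L49-3 lowest in both libraries. Its log2 fold change between the sides was 0.02 (SE 0.208), and between embryos the unadjusted p was 0.00414 and the adjusted p 0.194 with edgeR, with L49-3 at 0.44 times the other embryos. *Eng* shares 61 bases of exon on the opposite strand with *Fpgs*, which had 687 counts in all against 451 of *Eng*. *Acvrl1*, the type I receptor that works with endoglin, lay between 13.3 and 33.2 normalized counts. The left libraries had a mean of 30.3 ± 2.22 and the right of 22.2 ± 9.45 (SD, n = 4), with low right libraries in L29-3 and L49-3. With a log2 fold change of 0.43 (SE 0.258, adjusted p = 0.987 with edgeR), this did not pass the test.

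Among the genes of peptide signaling, *Aplnr* had even values in all libraries. It had 263 and 317 normalized counts for L29-3, 298 and 291 for L43-5, 322 and 275 for L46-8, and 316 and 279 for L49-3. Neither the sides nor the embryos separated, with a log2 fold change of 0.04 (SE 0.0899, adjusted p = 0.992 with edgeR) and an adjusted p of 0.993 between embryos. Its counts varied over the 8 libraries 1.52 times as much, as a variance, as counting error alone would give, against a median of 2.98 over the tested genes of the list and 1.78 over all tested genes, and values of 8.95 in *Tek*, 7.19 in *Flt1* and 6.64 in *Eng*. Its ligand *Apln* lay between 19.9 and 35 normalized counts, with a value of 1.01 on the same measure. *Npr3*, the clearance receptor of natriuretic peptides and a marker of endocardium, had 176 and 193 normalized counts for L29-3, 156 and 130.2 for L43-5, 146 and 137 for L46-8, and 139 and 118 for L49-3. L29-3 was highest, and the sides overlapped. Its log2 fold change was 0.10 (SE 0.106, adjusted p = 0.987), and between embryos the unadjusted p was 0.0282 and the adjusted p 0.409. The adrenomedullin receptor *Calcrl* lay between 38.5 and 57.8 and its partner *Ramp2* between 35.5 and 79.2, with *Ramp2* sharing 1103 bases of exon on the same strand with *Vps25*, which had 21 counts in all. The 5 genes of this group had a median log2 ratio of -0.28 in L49-3.

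**Figure D4:**
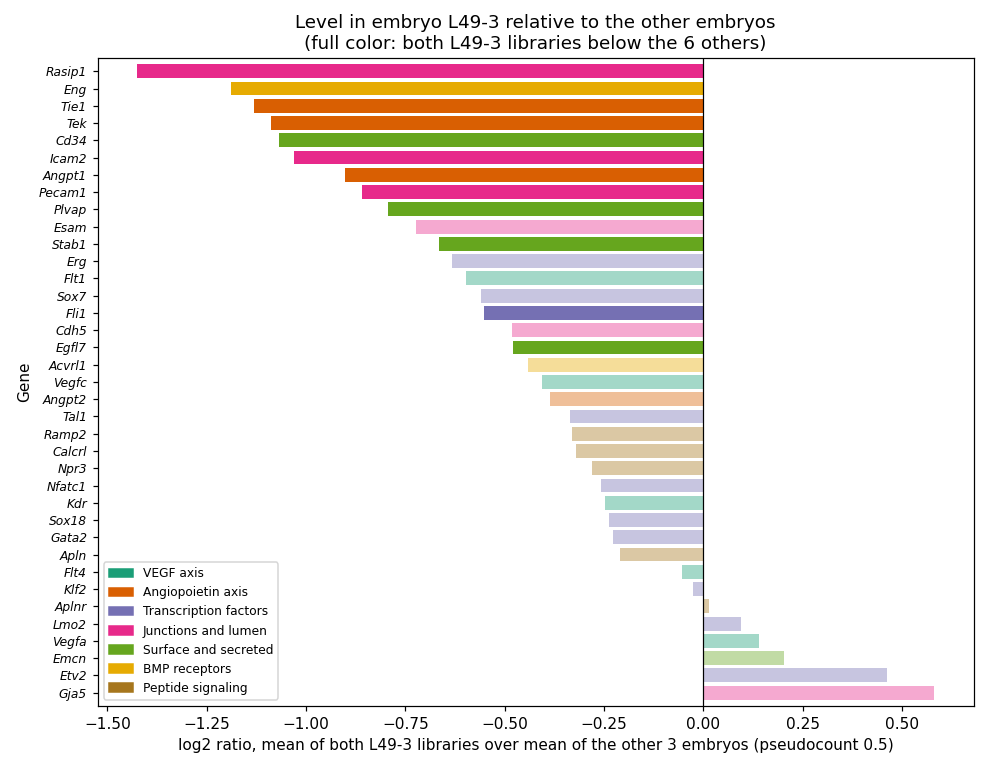
Log2 ratio of the mean of both L49-3 libraries to the mean of the other 3 embryos (normalized counts plus 0.5) for the 37 genes with more than 3 counts in L49-3, colored by role, in full color where both L49-3 libraries lay below the 6 others. The ratio was below 0 in 31 genes and above 0 in 6, from -1.42 in *Rasip1* to 0.58 in *Gja5*. This was not counted over all genes, and the values of *Rasip1* and *Gja5* rest on few reads in L49-3.

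The low values in L49-3 did not include all genes of the list. Of the 37 genes with more than 3 counts in L49-3, 31 had a log2 ratio to the other embryos below 0 and 6 above. The same was not counted over all tested genes, whose median ratio was -0.01, and the 37 include untested genes with few counts. The 6 were *Gja5* (0.58), *Etv2* (0.46), *Emcn* (0.20), *Vegfa* (0.14), *Lmo2* (0.09) and *Aplnr* (0.01). *Gja5* rests on 6 and 16 reads in the left and right library of L49-3. In *Etv2* only the left library of L49-3 was high, with 44.9 normalized counts against 19.9 in the right. Whether the roles differed in the ratio of L49-3 to the other embryos was not tested. The summed CPM of the 39 genes was 1538 and 1547 for the left and right library of L29-3, 1406 and 1436 for L43-5, 1597 and 1430 for L46-8, and 1268 and 1036 for L49-3. Both libraries of L49-3 lay below the 6 others, at 0.772 times their level, and the mean log2 ratio of left to right was 0.10 ± 0.15 (SD, n = 4), within the spread between embryos. Without the 9 genes that other cell types also make, the sum in L49-3 was 0.708 times that in the other embryos.

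Other genes of the lineage were summarised by list. Of 46 further endothelial markers, 32 were tested, 2 were past the threshold with a higher level on the left, *Fgd5* (log2 fold change 0.41, SE 0.13) and *Heg1* (0.35, SE 0.121), and 1 with a lower level, *Grrp1* (-0.73, SE 0.296), each with an adjusted p of 0.987. Their median log2 fold change was 0.05, and 20 of the 32 were lowest in L49-3, against 33.9% of all tested genes. Their sum in L49-3 was 0.813 times that in the other embryos. Of 28 signaling partners of the VEGF, angiopoietin and apelin pathways, 27 were found and 19 tested. The median of the log2 fold changes was 0.06, and 2 were past the threshold with a higher level on the left, *Angptl2* (0.40, SE 0.157), a secreted angiopoietin-like protein, and *Epas1* (0.71, SE 0.282), a hypoxia-inducible factor, each with an adjusted p of 0.987. Of 10 further markers of endocardium and valves, 5 were tested, of which 0 passed (median -0.14 on the log2 scale). Blood, which shares *Tal1*, *Lmo2*, *Cd34* and *Gata2* with endothelium, gave few counts. Of 16 genes of primitive blood, 1 was tested, *Cd44*, with 374 counts in all. The leukocyte gene *Ptprc* and the erythroid factor *Gfi1b* had 0 counts in every library. Among the globin genes, *Hba-x*, *Hbb-bh1* and *Hba-a1* had 45, 23 and 65 counts in all. *Hba-x* had 22.8 and 14.0 normalized counts in the left and right library of L46-8 and 0 in either library of L29-3. *Hbb-bh1* had 5.70 and 12.7 in L46-8 and 0 in either library of L43-5. *Hba-a1* was spread otherwise, with 16.3 and 13.3 in L43-5 and 1.63 and 11.4 in L46-8, so that the globin genes did not point to the same embryo. The summed CPM of the list, *Cd44* included, lay between 31.0 and 65.1.

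Other cell types differed between the same embryos. The summed CPM of 12 cardiomyocyte genes was 483 in the left and 1489 in the right library of L49-3, and between 1329 and 3713 in the other embryos, so that the left library of L49-3 was the lowest and the right library lay within their range. Of 10 tested, 9 had an unadjusted p of at most 0.05 between embryos, against 9.99% of all tested genes. An adjusted p under 0.05 was found in 1, *Myh6* (0.047 with edgeR), against 0.174% of all tested genes. The 16 genes of second heart field and splanchnic mesoderm summed to 599 and 618 CPM in L49-3 and to between 743 and 1115 CPM in the other embryos. Its members went both ways: the log2 ratio of L49-3 to the other embryos was -2.50 in *Gata4*, -2.69 in *Tbx5*, -2.28 in *Hand1* and -2.95 in *Mab21l2*, but 0.50 in *Isl1*, 0.52 in *Fgf10*, 0.50 in *Six2*, 0.38 in *Tbx1* and 0.25 in *Fgf8*, genes named after their values were seen. Neural tube genes summed to between 302 and 647 CPM and stood at 1.54 times the other embryos in L49-3, those of paraxial mesoderm at 1.21 times, and those of foregut endoderm at 0.837 times. Surface ectoderm genes stood at 1.16 times and cranial neural crest genes at 0.965 times. Between the sides, 2 neural tube genes, *Pax6* and *Sox1*, were past the threshold with a lower level on the left, and 0 of the tested genes of the other cell types. L49-3 thus differed from the other embryos in several lists and had the lowest total counts, and the part of these in the low endothelial values was not tested.

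**Figure D5:**
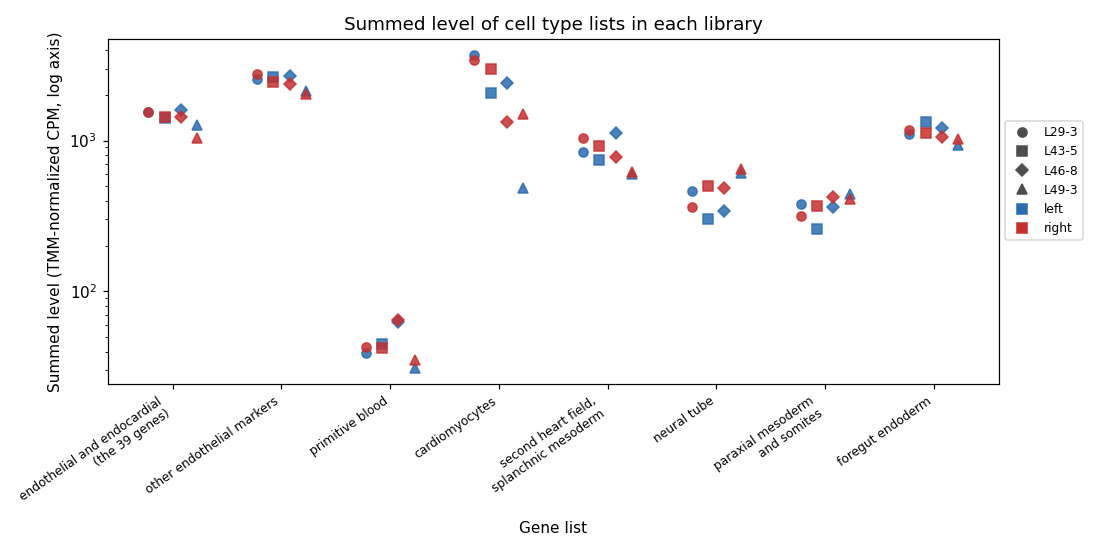
Summed TMM-normalized CPM (log axis) of the 39 genes and of 7 lists of genes of related or neighbouring cell types in each library, with shape for the embryo and color for the side. The triangles of L49-3 are lowest for the 39 genes (1268 and 1036) and highest for the neural tube (610.2 and 647).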

How the data were processed

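Poly-A RNA of paired left and right heart fields of 4 embryos was sequenced by the authors as 8 paired-end libraries. The deposited values are raw counts of reads per gene, which the authors made by aligning to GRCm38 with Hisat2, excluding duplicate reads and counting with featureCounts. The versions of these tools, and whether counting used strand, are not given in the sources used here. No column of the table was left unused (0). Symbols, positions and exon lengths were taken from GENCODE vM21 on GRCm38, and 48144 of 48526 identifiers had a symbol.

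Counts were fitted with edgeR 4.0.16 (TMM, quasi-likelihood test) in R 4.3.3 with embryo and side as terms, over the 9744 genes that reached 20 DESeq2-normalized counts in 4 or more libraries, and p-values were adjusted by the Benjamini-Hochberg procedure over all of them. Per-library values are DESeq2-normalized counts. Ratios of single embryos use TMM-normalized CPM, and those of L49-3 to the other embryos normalized counts, each with a pseudocount of 0.5. Intervals cover 95%. The script was tested on simulated data. Near-identical genes share at least 90% identity over at least 100 bases of transcript. The intervals of log2 fold changes come from the edgeR fit and include the variation between libraries, whereas the limits set by 3 counts cover counting error only.

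The libraries of an embryo are paired by animal according to the labels. After subtraction of the mean of a side, the 2 libraries of an embryo correlated across genes with r = 0.165 (L29-3), 0.19 (L43-5), -0.02 (L46-8) and 0.437 (L49-3), against -0.389 to 0.255 between different embryos. No pair of libraries agreed within sampling noise (smallest chi-square per degree of freedom 1.93). Within an embryo this value was 2.11 (L29-3), 4.05 (L43-5), 3.19 (L46-8) and 1.93 (L49-3), against 2.04 to 5.41 between different embryos. The right library of L46-8 stood closer to the left (2.14) and right (2.04) library of L49-3 than to its own left library. The libraries of an embryo were thus not always the most alike, and the part of depth in these values was not tested. The 39 genes and all lists were chosen with earlier results of these data known. Genes are described in every library if they passed between the sides, had one of the 4 smallest p-values between embryos, were among the 3 highest or 3 lowest per base, or are the markers *Kdr*, *Cdh5*, *Pecam1*, *Tek*, *Etv2*, *Nfatc1* and *Npr3*. Of the other lists, up to 4 called genes are named. Alternatives were other size factors, other filters, DESeq2 1.42.0, limma-voom (limma 3.58.1), no replicate block, and each embryo left out. The value of 1 gene of the blood list is not reported here, and the in situ, single-cell and mutant data of the study were not used here.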

Additional observations from a re-analysis of the deposited data

Results flagged for a closer look

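For the 16 genes described in every library and for the summed level of the 39 genes, the 4 left libraries, the 4 right libraries and the 4 ratios of left to right were searched for a value far from the rest, with no ratios for the sum. In 3 of these 50 groups of 4, a value stood apart by more than the 95% critical value of Dixon's test. Chance flags about 1 in 20 such groups. All 3 came from L49-3. The left library of L49-3 had 55.7 normalized counts of *Stab1*, against 86.3 to 90.8 in the other left libraries. The right library of L49-3 had 96.4 normalized counts of *Cdh5*, against 191 to 207 in the other right libraries. The log2 ratio of left to right of *Cdh5* was 0.83 in L49-3, against -0.22 to -0.13 in the other embryos. The right library of L49-3 was also the shallowest, with 1147446 counts, and held 58 counts of *Cdh5*, and the part of depth in these values was not tested.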

How the results depend on the processing

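No alternative gave any of the 39 genes an adjusted p under 0.05 between the sides. The number past the fold and p threshold, 1 in the reported fit, was 2 without a filter (*Stab1* and *Tek*), 0 with DESeq2, 0 with no replicate block, and 1 to 2 with an embryo left out: *Tek* and *Flt1* without L29-3, *Vegfc* and *Flt4* without L43-5, *Kdr* (0.27, unadjusted p = 0.0102 with edgeR) without L46-8, and *Stab1* and *Vegfa* without L49-3. Over all genes it was 297 in the reported fit, 687 without a filter, which tests more genes, and 59 with DESeq2. Between embryos, 0 of the 39 genes passed in the reported fit, 7 without a filter (*Eng*, *Tek*, *Tie1*, *Gja4*, *Flt1*, *Rasip1* and *Plvap*), and 0 to 3 with an embryo left out, the 3 being *Eng*, *Tie1* and *Plvap* without L46-8. Over all genes 17 passed between embryos, 641 without a filter, 9 with at least 10 counts in every library, 48 with DESeq2, 4 with limma-voom, and 0 (without L49-3) to 236 (without L46-8) with an embryo left out. The cause of these shifts was not tested. The log2 fold changes that changed sign were close to 0 in the reported fit, but some moved away from 0 with an embryo left out. *Cdh5* was 0.0081 with library size alone, 0.011 without a filter, 0.034 with DESeq2 and -0.18 to 0.0895 with an embryo left out. *Eng* was -0.071 with limma-voom and -0.16 to 0.31 with an embryo left out. With an embryo left out, *Tie1* lay between -0.042 and 0.15, *Plvap* between -0.074 and 0.0938 and *Aplnr* between -0.026 and 0.14. Among the 39 genes the block changed no other call, and over all genes 233 were past the fold and p threshold without it. The longest transcript was not used as an alternative for the summed CPM, which takes no length. Low counts limit the 7 untested genes most.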
